A study of Mus musculus with 6 samples.

Results

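The 5 genes described here encode the D-type cyclins, Ccnd1, Ccnd2 and Ccnd3, and their catalytic partners, the cyclin-dependent kinases Cdk4 and Cdk6. They were chosen by name from the authors' list of genes tied to Bcl6 binding sites, where they have 8 of the 3878 peaks. Bcl6, a zinc finger transcriptional repressor, was located on DNA by ChIP-seq, in which chromatin is precipitated with an antibody and the bound DNA is sequenced. The material was cortical progenitor cells derived from A2 lox.Cre Bcl6 mouse embryonic stem cells, a line in which Bcl6 is under tetracycline control. All 6 libraries came from cells at differentiation day 12 given 1 µg/ml doxycycline for 24 h to induce Bcl6, and earlier grown with cyclopamine, an inhibitor of hedgehog signalling. In 3 libraries the DNA was precipitated with an antibody to Bcl6, and the other 3 were input DNA. Each group was pooled by the authors before peaks were called, so no value has a replicate error, and intervals on tag counts cover counting alone. Bcl6 came from a transgene as well as from any endogenous expression, uninduced cells were not analysed here, and transcript levels, which would test the progenitor label or the output of these genes, were not analysed here either.

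D-type cyclins link growth signals to the cell cycle. A D cyclin binds Cdk4 or Cdk6, and the complex phosphorylates the retinoblastoma protein, which releases E2F factors and lets the cell pass from G1 into S phase. In the developing cortex these cyclins are known from dividing progenitors: cyclin D1 is abundant in radial glia, and cyclin D2 messenger RNA is known to be carried into their basal process. Ccnd2 is also a known target of Bcl6 repression in B cells.

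The peaks over or beside these genes are shown first by the sequences that RefSeq gives for them (GRCm38.p6, the build called mm10 in the authors' files). Reference windows ran from 250 bases before to 50 after a transcription start site (TSS). They existed for 3 of the 5 genes, as 1 window each for Cdk4 and Cdk6 and 2 for Ccnd3, and the 250 bases before a start are printed. The Cdk4 window (chr10:127063285-127063534, plus strand) is shown because a peak covered all of it. Capitals mark each E-box CACGTG, the site bound by Myc and related factors. The second line (chr5:3342253-3342502, minus strand) precedes a start of the long non-coding RNA gene Gm36470 and is shown because it lies inside the Cdk6 peak. The third (chr10:127070262-127070511, minus strand) precedes the start of Tspan31, the neighbour of Cdk4, beside the summit of the second Cdk4 peak. Neither of these printed stretches holds an E-box, but the window of the second line has one just past its printed bases, at position 262.
Cdk4: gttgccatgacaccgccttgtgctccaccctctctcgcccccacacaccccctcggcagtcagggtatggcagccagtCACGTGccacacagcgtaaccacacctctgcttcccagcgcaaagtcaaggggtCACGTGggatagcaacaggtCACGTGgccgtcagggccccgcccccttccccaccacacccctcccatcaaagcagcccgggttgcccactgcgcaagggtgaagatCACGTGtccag
Cdk6 peak: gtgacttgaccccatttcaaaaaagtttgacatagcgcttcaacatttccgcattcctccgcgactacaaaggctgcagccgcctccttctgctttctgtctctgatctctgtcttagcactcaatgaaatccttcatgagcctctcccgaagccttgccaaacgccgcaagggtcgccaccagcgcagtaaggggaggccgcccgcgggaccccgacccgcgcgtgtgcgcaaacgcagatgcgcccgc
Tspan31: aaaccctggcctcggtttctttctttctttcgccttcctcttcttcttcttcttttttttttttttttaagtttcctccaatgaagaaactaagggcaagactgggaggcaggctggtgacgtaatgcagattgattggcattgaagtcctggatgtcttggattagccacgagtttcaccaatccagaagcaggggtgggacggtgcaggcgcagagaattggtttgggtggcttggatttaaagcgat

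Both kinase genes and all 3 cyclin genes had a listed peak, which their choice from the authors' list fixed in advance. Of the 21887 protein-coding genes of the RefSeq gene table, 20.1% had one. Ccnd1 had 3 peaks, Cdk4 had 2 and the others had 1 each. At least 2 listed peaks were found for 4.09% of protein-coding genes and at least 3 for 1.05%. Ccnd2 and Cdk4 had a peak centred within 1 kb of the listed TSS, which 10.8% of protein-coding genes had. Counted by pair of a peak and a listed gene, 2 of the 8 (25%) were that close, against 41.7% of all 5801 pairs. Counted by peak and its nearest listed TSS, 2 of the 8 were that close, against 2171 of all 3878 peaks. A peak of over 30-fold was listed for Ccnd1, Ccnd2 and Cdk6 and for 4.44% of protein-coding genes. This level was not a planned threshold, and it lies between the folds of 26.6 and 35.46 found for these genes. Ccnd1 passed it through 1 peak of 30 tags, 94.7 kb upstream. The shares of protein-coding genes include genes without a listed peak, whereas all 5 genes here had one. Of the 4394 protein-coding genes with a listed peak, 2358 had one centred within 1 kb. At least 2 were listed for 896 of them, at least 3 for 230, and one of over 30-fold for 972. These values describe a single pooled data set and 5 genes picked by name with earlier results of these data known. No test of the list was made.

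Of the cyclin genes, Ccnd2 (chromosome 6, 127125162 to 127152188, minus strand) had the peak with the highest fold. This single peak ran from 127150267 to 127152938 and held 123 tags (exact Poisson 95% interval 102 to 147). The authors' peak caller gave it a fold enrichment over input of 45.43, a score (−10 log10 of the p-value) of 163.56 and an empirical false discovery rate (FDR) of 1.17%. By fold it ranked 168 of 3878 peaks, and by score 341. Among the 2171 peaks centred within 1 kb of a listed TSS, whose median was 20.3-fold, it ranked 46.

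The Ccnd2 peak covered the start of the gene whichever start is used. Its centre lay 554 bp and its summit 845 bp upstream of the TSS in the authors' list, and the peak included that TSS. The RefSeq record reached 1140 bp further upstream than the listed TSS, so that the summit fell 295 bp inside the record and the peak extended 750 bp beyond it. The peak was 2672 bp wide, above the median width of 1405 bp. It also lay wholly inside the record of the long non-coding RNA gene 9330179D12Rik (127149389 to 127212419), so a peak there cannot be assigned to 1 of the 2 genes by position. No other gene was listed for it.

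Ccnd1 (chromosome 7, 144929931 to 144939831, minus strand) differed in layout, with 3 narrow peaks and none at its start. The strongest, of 35.46-fold, lay 94.7 kb upstream, from 145034231 to 145034988, and held 30 tags (interval 20.2 to 42.8) with a score of 65.72. It overlapped no gene record. The only other gene listed for it was Tpcn2, which encodes an ion channel of endolysosomes, with a TSS 249 kb away. Of the 345 peaks over 50 kb from any listed TSS it ranked 81, and their median was 27.2-fold.

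The second Ccnd1 peak lay in the gene body, centred 2161 bp downstream of the TSS, from 144937269 to 144938147. It had 24.82-fold, 35 tags (24.4 to 48.7) and a score of 53.7. The third ran from 144928661 to 144930054 across the downstream end of the gene, with 19.95-fold, 38 tags (26.9 to 52.2) and a score of 53.27. Its centre was 574 bp beyond the end of Ccnd1 and inside LTO1 (listed under its older name Oraov1), whose record overlaps that of Ccnd1. The peak shared 124 bp with Ccnd1, and all of its 1394 bp lay in LTO1.

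The Ccnd1 peaks scored low for their fold. All 3 fell below the median score of 71.7, and their tag intervals overlapped one another. The upstream peak exceeded 89.9% of all peaks by fold, but only 40.6% by score and 5.21% by tags. Without peaks below the median score, Ccnd1 and Ccnd3 had 0 peaks, while Ccnd2, Cdk4 and Cdk6 kept all of theirs.

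Ccnd3 (chromosome 17, 47505051 to 47599689, plus strand) had the lowest fold of the 8. Its peak (47600907 to 47602073) held 34 tags (23.5 to 47.5), with 19.7-fold and a score of 59.15, and 42.2% of all peaks had a lower fold. It was listed at 96.4 kb from the Ccnd3 TSS, began 1218 bp beyond the end of the gene and lay wholly inside Bysl (47599331 to 47611492), which encodes a factor of ribosome assembly. Bysl was the nearer of the 2 listed genes, at 10002 bp from its TSS. RefSeq also has a second Ccnd3 start, at 47593467, from which the peak was 8.02 kb away and thus nearer than from the Bysl TSS. This start was considered only after the distances had been seen. Neither of the 2 Ccnd3 start windows overlapped a Ccnd3 peak.

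Both kinase genes had a peak near the start. Cdk6 (chromosome 5, 3341004 to 3531008, plus strand) had the strongest peak of the 8, of 55.17-fold, from 3342129 to 3343472. It held 74 tags (58.1 to 92.9), with a score of 190.34 and an FDR of 1.62%. By fold it ranked 100 of all peaks, above 97.4% of them. Among the 424 peaks centred 1 to 5 kb from a listed TSS, whose median was 19.5-fold, it ranked 7.

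The Cdk6 peak sat just outside the promoter as the authors' list places it. Its centre was 1093 bp and its summit 1177 bp upstream of the listed TSS, and its edge stopped 421 bp short of that TSS. A window of 1 kb therefore leaves it out, and a window of 2 kb takes it in. The RefSeq record of Cdk6 starts 2889 bp upstream of the listed TSS, and on that record the whole peak was inside the gene. The whole peak also lay inside Gm36470 (3289980 to 3343559), 1 of whose starts lies within the peak. No gene other than Cdk6 was listed for it.

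Cdk4 (chromosome 10, 127063535 to 127067288, plus strand), a short gene of 3.75 kb, had a peak at each end. The first (127062881 to 127064064) was the promoter peak, centred 62 bp and with its summit 138 bp upstream of the TSS. It held 80 tags (63.4 to 99.6) in 1184 bp, with 21.87-fold, a score of 85.26 and an FDR of 0.67%. Its fold was near the median of all peaks (21.3), yet its 67.6 tags per kb of width exceeded 95% of them. The median over all peaks was 40 tags per kb. March9 was listed for it too, at 3288 bp.

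The second Cdk4 peak (127067098 to 127070872) was 3775 bp wide and held 217 tags (189 to 248), the most of the 8. Its score of 283.79, rank 115 of all peaks, was also the highest of the 8, while its fold was 26.6. Only 191 bp of it overlapped Cdk4, and 3586 bp lay in Tspan31, which encodes a tetraspanin membrane protein. The long non-coding RNA gene A730063M14Rik starts inside the peak and shares 392 bp with it, a stretch also in Tspan31. The summit was 6687 bp from the Cdk4 TSS and 40 bp downstream of the Tspan31 start whose upstream sequence is printed above. With each peak given to its nearest listed TSS, it went to Tspan31 and left Cdk4 with its promoter peak alone. The 2 peaks were separated by 3033 bp.

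**Figure D1:**
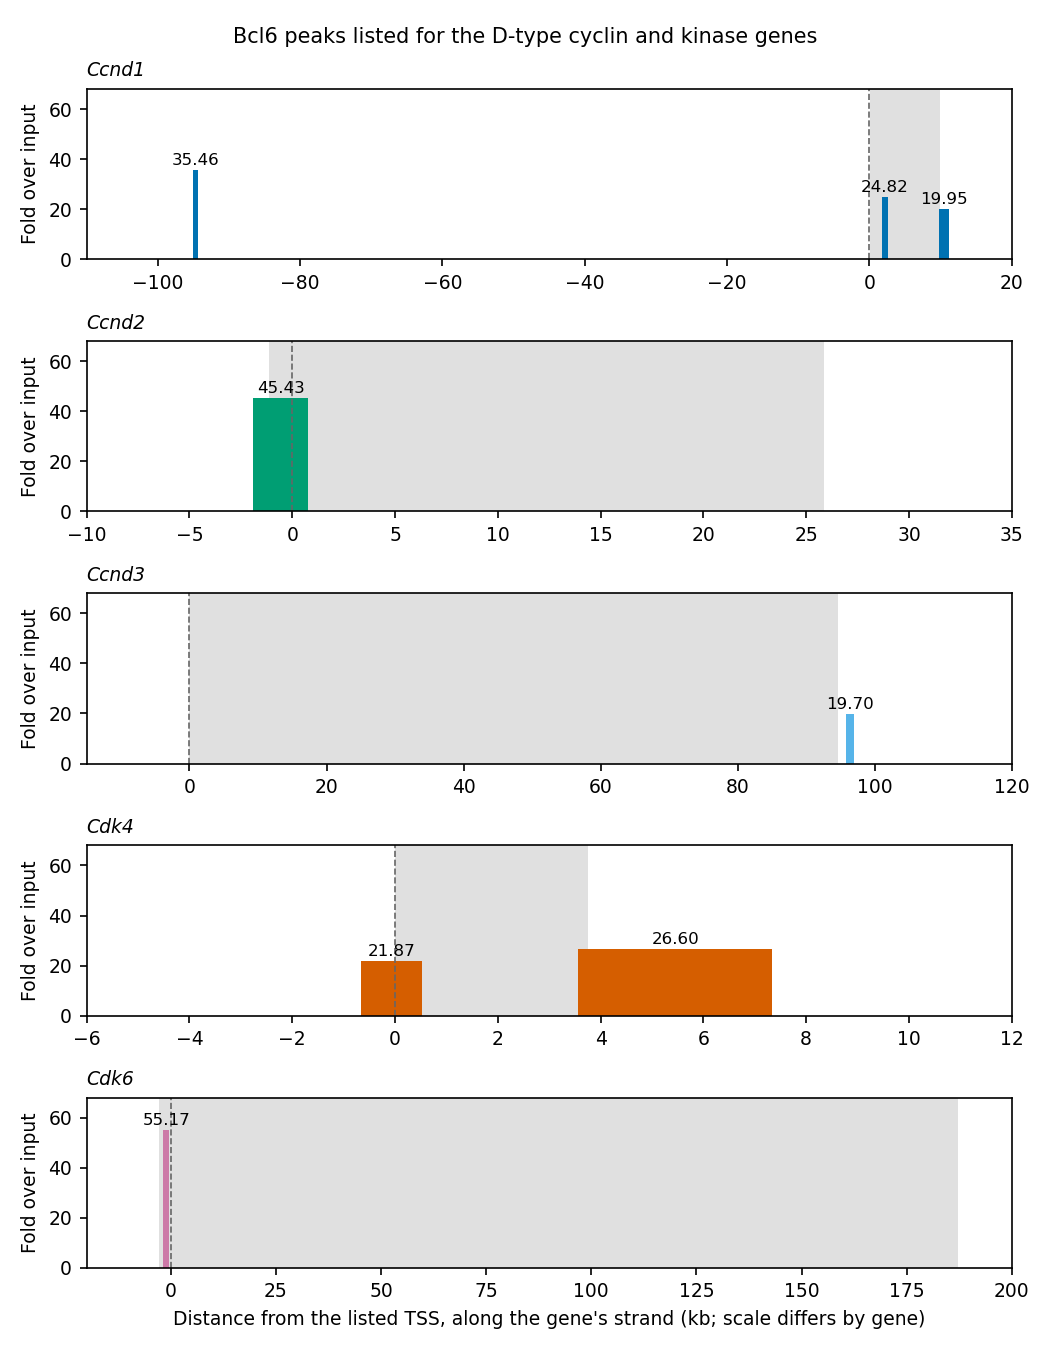
Bcl6 peaks of the 5 genes by distance from the listed TSS (x axis, kb along the strand of the gene, with a different scale for each gene) and fold enrichment over input (y axis); bars are peaks drawn to their width, grey is the RefSeq gene record and the dashed line the listed TSS. Peaks cover the TSS at Ccnd2 and Cdk4, stop 421 bp short of it at Cdk6, lie 94.7 kb upstream, in the gene body 2161 bp downstream of the TSS and at the downstream end at Ccnd1, and lie past the gene end at Ccnd3.

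Across the 8 peaks, the measures did not rank the genes alike. The fold was above the median of all peaks in 6 of 8 and above the upper quartile of 27.2 in 3, which were those of Cdk6, Ccnd2 and the upstream peak of Ccnd1. The score was above the median in 4 of 8, which were the peaks of Ccnd2, Cdk6 and Cdk4. The same 4 peaks were above the median in tags and in tags per kb. The median fold of the 8 was 25.7, against 21.3 for all peaks, and the median tag count was 56, against 58.

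The Cdk4 promoter peak and the upstream Ccnd1 peak show the contrast. The first had 80 tags and 21.87-fold, the second 30 tags and 35.46-fold, and their tag intervals did not overlap. An identical fold of 35.46 was listed for 36 other peaks and one of 26.6, that of the second Cdk4 peak, for 75 others, so the fold has coarse steps. The fold of the Ccnd2 peak was shared with 0 other peaks and that of Cdk6 with 1. The FDR of the 8 peaks ran from 0.67 to 2.69%, with a median of 1.49%, against 0.86% for all peaks. Only the Cdk4 promoter peak, at 0.67%, and the upstream Ccnd1 peak, at 0.7%, were below that of the median peak.

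**Figure D2:**
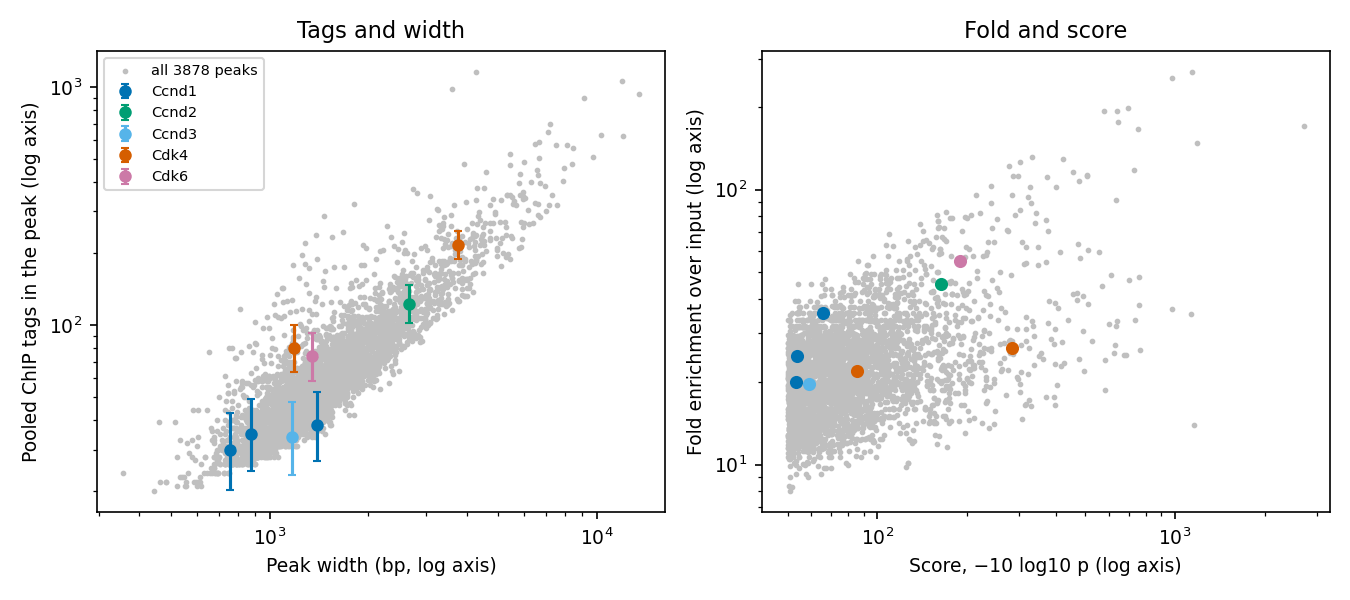
Pooled ChIP tags against peak width (left) and fold enrichment against score (right), all on log axes, for all 3878 peaks (grey) and the 8 peaks of the 5 genes (coloured; bars are exact Poisson 95% intervals of the tags). The peaks of Ccnd1 and Ccnd3 hold 30 to 38 tags, and those of Cdk6 and Ccnd2 combine folds of 55.17 and 45.43 with scores of 190.34 and 163.56.

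**Figure D3:**
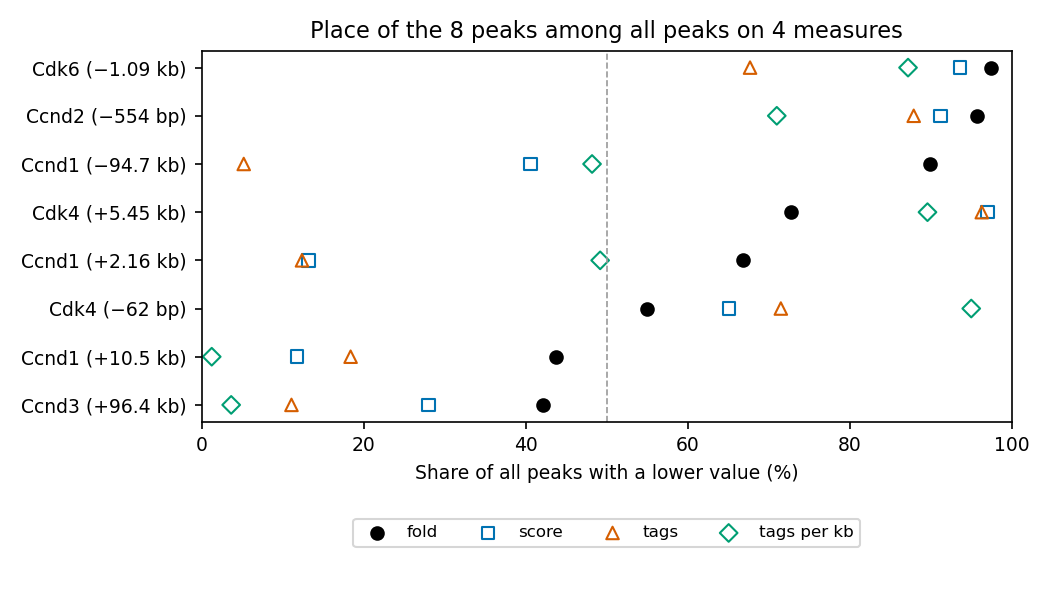
Share of all peaks with a lower value (x axis, percent) for each of the 8 peaks (rows, with the distance from the listed TSS) by fold, score, tags and tags per kb; the dashed line is the median peak. The 4 peaks of Cdk6, Ccnd2 and Cdk4 lie right of it on all 4 measures, while the upstream Ccnd1 peak reaches 89.9% by fold and 5.21% by tags.

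The promoter windows were searched on both strands for the known Bcl6 core, TTCCTAGAA or TTCCTCGAA, and for its outer triplets with any middle, TTCNNNGAA, of which both cores are instances, and the same triplets with 1 more N between them. The 4 windows of Ccnd3, Cdk4 and Cdk6 held 0 matches to any of these. Over all 32851 windows of that length, 0.411% held the first core, 0.0639% the second, 8.3% the triplets and 6.95% the wider spacing. Of the 2726 windows wholly inside a Bcl6 peak, 0.33% held the first core and 6.2% the triplets. Windows of 300 bases cover only part of a peak, and the sequence of the other peaks was not used here.

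A match to the first core with 1 mismatch lay beside Cdk6, in the window of a second Gm36470 start, and is shown with its surroundings because it is the only such match in the 8 windows searched (chr5:3343632-3343660, minus strand, capitals mark the match). Such matches were found in 8.63% of all windows. This match lay 170 bp beyond the edge of the Cdk6 peak and 243 bp upstream of the listed TSS.
Cdk6 start: ggggttggggCTCCTAGAAccctgtaacc

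The Cdk4 promoter held 4 E-boxes, at positions 79, 133, 153 and 240 of its window, and the summit of the peak was at position 112, between the first and the second. The E-box was chosen after the sequence had been seen. At least 1 was found in 7.15% of all windows and in 12.5% of those inside a Bcl6 peak, and at least 4 in 8 windows (0.0244%), of 6 genes. Of the 2726 windows inside a peak, 4 held at least 4. The Gm36470 window inside the Cdk6 peak held 1, at position 262, the Cdk6 window, outside the peak, held 1, and the 2 Ccnd3 windows held 0. These matches are letters in a sequence, and binding of other factors was not measured.

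Other genes of the G1/S transition, from a list of 34, had a listed peak in 11 cases (32.4%, against 20.1% of protein-coding genes). Of the 11, 7 had one centred within 1 kb, as had 2358 of the 4394 protein-coding genes with a peak. The strongest was that of Ccne1, an E-type cyclin that acts with Cdk2 after the D cyclins, at 42.74-fold and 4733 bp upstream. It held 39 tags, and the E-type cyclin gene Ccne2 had 0 peaks. Next by fold was the inhibitor gene Cdkn1a at 25.08-fold, with 5 peaks in all. Rb1, which encodes the retinoblastoma protein, had 23.47-fold at 165 bp, Ccna1 22.16-fold at 64.9 kb, and the inhibitor gene Cdkn1b 21.53-fold at 246 bp. Of the INK4 inhibitors of Cdk4 and Cdk6, Cdkn2d had a peak of 12.66-fold at 152 bp, and Cdkn2a, Cdkn2b and Cdkn2c had 0.

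Of a list of 14 genes taken to act on the stability or folding of D cyclins and their kinases, 6 had a peak (42.9%). Of these, 5 had one centred within 1 kb, against 2358 of the 4394 protein-coding genes with a peak. Dyrk1a, a kinase that phosphorylates cyclin D1 for degradation, had 43.34-fold at 287 kb from its TSS, in a peak of 30 tags. The chaperone gene Hsp90ab1 had 33.43-fold at 6300 bp, in a peak 6645 bp wide. Dyrk1a and Hsp90ab1 each had 2 peaks, and the other was centred within 1 kb of the TSS. Dyrk1b had 23.56-fold at 374 bp. Trpc4ap, for which a role in D cyclin stability is not established here, had 17.29-fold at 16 bp. Gsk3a had 15.96-fold at 11.9 kb. Gsk3b, Ambra1, Fbxo4 and Fbxo31 were among the 8 with 0 peaks.

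The other cyclin and Cdk genes had a peak in 11 of 33 cases (33.3%), 7 of them within 1 kb, and none over 30-fold. Of the 4394 protein-coding genes with a peak, 2358 had one within 1 kb and 972 one of over 30-fold. The strongest were those of Ccnj (28.36-fold at 42.1 kb), Ccnb1, the mitotic cyclin (25.61-fold at 3616 bp), Cdk8 of the Mediator complex (23.05-fold at 29.9 kb), the neuronal kinase gene Cdk5 (21.28-fold at 355 bp) and Cdk16 (18.62-fold at 98 bp). The median of the strongest peak per gene was 35.5-fold for the D cyclins and their kinases, 20.6-fold for the other G1/S genes with a peak, 20.4-fold for the stability genes and 16.6-fold for the other cyclins and Cdks. Over the 4394 protein-coding genes with a peak it was 22.3-fold. The value of 35.5-fold is that of 1 peak, the upstream Ccnd1 peak, which held 30 tags and scored below the median of all peaks. A gene with several peaks has more chances of a high value, and no test between lists was made.

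**Figure D4:**
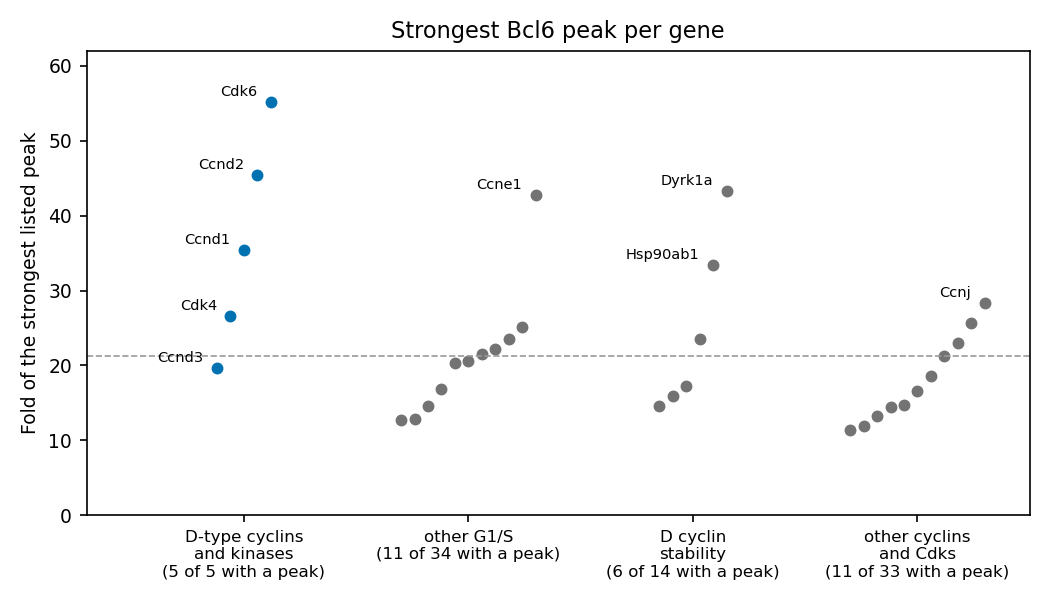
Fold of the strongest listed peak (y axis) for each gene with a peak, by gene list (x axis, with the number of genes with a peak of those in the list); the dashed line is the median of all peaks. Cdk6 and Ccnd2 are above every gene of the other 3 lists, where Dyrk1a and Ccne1 reach 43.34- and 42.74-fold in peaks of 30 and 39 tags.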

How the data were processed

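The submitters' processing notes name mm10 and Bowtie, whose version was not given in the sources used here. Per the file headers, MACS 1.4.2 called peaks on pooled ChIP (11718276 tags left of 56836596) against pooled input (5048582 of 12808138), keeping 1 tag per position, with a p-value cutoff of 1e-05. The authors deposited the raw count of ChIP tags per peak, the fold (ratio) over local input background, a score and the FDR in percent. The name of the score column is overwritten in the authors' file. The order of the columns and a minimum of 50.03 identify it as −10 log10 p.

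Per the file headers, GREAT 3.0.0 tied peaks to genes within 1000000 bp. MACS_peak numbers were read as rows of the peak table. A TSS placed from each peak centre and its distance fell within 100 bp of a RefSeq start for 83.2% of 4581 pairs. Symbols, older ones included, matched the RefSeq gene table for 98.6% of 5801 pairs. Coordinates are 1-based, and gene records come without exons, so exon or intron is not given.

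Ranks, shares and exact Poisson intervals were computed in Python 3.11.15 with scipy 1.17.1, and no hypothesis test was made. The search for TTCNNNGAA was tested on simulated windows of A and C with that motif planted. Such windows cannot hold it otherwise, so false matches could not arise. The other motifs and the search with 1 mismatch were not tested. Text names all 5 genes with every peak, and of each further list the 5 genes of highest fold. Genes and lists were chosen with earlier results of these data known. Genes with 0 peaks, Cdkn2d and the E-box were added after values were seen. The level of 30-fold was not among the planned thresholds.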

Additional observations from a re-analysis of the deposited data

How the results depend on the processing

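With only peaks at or above the median score, 3 of the 5 genes and 4 of the 8 peaks were left, as were 6 G1/S genes (17.6%), 2 stability genes (14.3%) and 2 other cyclin and Cdk genes (6.06%), against 10.8% of protein-coding genes. The share of the other cyclin and Cdk genes thus went from above that of all genes (33.3% against 20.1%) to below it. With only peaks within 5 kb of the TSS or in the gene body, 4 of the 8 peaks were left, and Ccnd3 had 0. With peaks at most 2000 bp wide, 3 stability genes were left and Ccnd2 had 0. A promoter window of 5 kb took in 4 peaks instead of 2. The Cdk6 peak, above 97.4% of peaks by fold, was above 93.6% by score, 87.2% by tags per kb, 98.3% of its distance class and 96.8% of peaks at most 2000 bp wide. The E-box, an added search, was found in 2 of the 4 windows. The Ccnd3 distance of 96.4 kb became 8.02 kb from the second RefSeq start. The other 27 of 40 alternatives for these counts, medians and shares stayed within 1.5 times the main count, within the range of the 8 folds or within the binomial interval of the share. The median fold of a subset of the 8 peaks cannot leave the range of their folds, so that criterion could not fail. It moved from 25.7 to 36 with the score filter and to 35.1 within 5 kb or in the gene body. By nearest listed gene it was 30.1, and at widths of at most 2000 bp 23.3. Over all peaks so filtered it was 23.6, 20.5, 21.3 and 22. An FDR of at most 5% changed no count. For the 8 peaks it could not, because their highest FDR was 2.69%.

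No paired analysis was possible because the deposited values are of pooled libraries, so leaving out a replicate was not run. Depth limits the peaks of Ccnd1 and Ccnd3 most, with 30 to 38 tags each.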

Other observations

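The neighbourhoods of the 5 genes held further peaks that were listed for other genes. Within 300 kb of the gene record there were 6 such peaks at Ccnd3, 5 at Cdk4, 2 at Ccnd1, 2 at Cdk6 and 1 at Ccnd2. With the genes' own peaks the counts were 7, 7, 5, 3 and 2. The median over all 21887 protein-coding genes counted that way was 1 (quartiles 0 and 4). The 5 genes were chosen from those with a listed peak, and each count includes at least 1 such peak. A count below that median was therefore excluded by the choice of genes. Only 4394 of the 21887 genes had a listed peak, and a comparison with those alone was not made. The strongest neighbour of Ccnd3 had 89.22-fold, above the 19.7-fold of its own peak, and lay 2519 bp downstream of the TSS of Tfeb, which encodes a regulator of lysosome genes. The strongest neighbour of Cdk4 had 50.53-fold and was listed for Mbd6 and for the stress response gene Ddit3, 698 bp upstream of its TSS. Near Ccnd1 the strongest neighbour by fold, of 21.28-fold, was listed for the growth factor genes Fgf15 and Fgf4. It held 146 tags with a score of 188.01, both above those of every Ccnd1 peak. At Ccnd2 the listed peak was stronger than its only neighbour, of 14.63-fold, which was listed for Parp11 and Gm4968.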
